A study of Mus musculus with 14 samples.

Results

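The genes of the cytosolic ribosomal proteins were examined in ventricular heart tissue of mice, 1 week after an operation that loads the heart. They were taken by symbol, as every name made of Rpl or Rps, a number and at most 1 final letter a, x or l, together with Rpsa, Rplp0, Rplp1 and Rplp2. The rule found 83 of 54532 gene rows, 51 named for the large and 32 for the small subunit. The series held 14 libraries of polyadenylated RNA from whole ventricular tissue, in 4 groups. In the first group mice without the chemokine gene Ccl24 (KO) had transverse aortic constriction (TAC), a narrowing of the aorta that raises the pressure load of the left ventricle (n = 4). The second was wild type (WT) TAC (n = 6), the third KO sham, an operation without the constriction (n = 2), and the fourth WT sham (n = 2). The labels give neither the strain, age or sex of the mice nor how the knockout was made, and the libraries of a group equal its stated number of mice, so each was taken as 1 mouse.

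Library totals ran between 17072262 and 33123052 counts. Ccl24, the deleted gene, had 8, 5, 6 and 3 counts in KO TAC, 3, 105, 56, 100, 69 and 94 in WT TAC, 6 and 3 in KO sham and 61 and 72 in WT sham. The WT TAC library with 3 counts is labelled wild type TAC replicate 1. It lies at the knockout level, against its label. Values without it are given for many ribosomal protein results, but not for every result. The 12 cardiomyocyte markers were all present, and their summed level was 69300 to 80900 CPM, counts scaled to the library total, in KO TAC, 57300 to 76500 in WT TAC, 87000 to 89800 in KO sham and 81000 to 82700 in WT sham. All 10 fibroblast markers were present too, with sums of 4600 to 6650, 6520 to 14000, 4620 to 5040 and 5500 to 5720 CPM in the same order of groups. Of the 3 atrial cardiomyocyte markers, 2 stayed under 1 CPM.

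A ribosome joins a small subunit, which reads the mRNA, to a large subunit, which forms the peptide bonds and holds the tunnel through which the new chain leaves. Most ribosomal protein mRNAs carry a terminal oligopyrimidine (TOP) tract, an unbroken stretch of C and U at the very 5′ end through which mTOR signalling adjusts their translation. Heart muscle that grows under pressure makes more ribosomes. Striated muscle also expresses Rpl3l, a paralogue of Rpl3, the large subunit protein that reaches towards the peptidyl transferase centre. In bulk tissue, fewer cells of a type and less RNA per cell cannot be told apart.

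The DNA letters around the annotated transcription starts were read for runs of C and T, wherever in the window they lay. Windows from 10 bases before the start to the first 20 bases of the transcript were read from RefSeq promoters of GRCm38.p6, in which 61 of the 83 genes had an entry. The following set was chosen to contrast genes that rose after TAC (Rpl13a, Rps26, Rpl39 and Rpsa), 1 that did not pass (Rps4x) and Rpl3l, which fell. Each is written 5′ to 3′ on the strand of the gene, with the longest run of C and T in capitals.
Rpl13a, chr7:45128726-45128755, minus strand: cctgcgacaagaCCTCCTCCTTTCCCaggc
Rps26, chr10:128626487-128626516, minus strand: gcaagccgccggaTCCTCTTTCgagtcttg
Rpl39, chrX:37085203-37085232, minus strand: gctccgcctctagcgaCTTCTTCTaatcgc
Rpsa, chr9:120127756-120127785, plus strand: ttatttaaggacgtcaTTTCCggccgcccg
Rps4x, chrX:102189372-102189401, minus strand: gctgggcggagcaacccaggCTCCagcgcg
Rpl3l, chr17:24727816-24727845, plus strand: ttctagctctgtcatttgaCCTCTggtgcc
An unbroken run of at least 8 C or T was found in 24 of the 61 genes (39.3%), against 13% of the 27025 genes with an entry. The median longest run was 7 bases in the ribosomal protein genes and 5 in all genes. Rpl13a has the longest run of the 6 windows shown, while those of Rps4x and Rpl3l hold 4 and 5. Rpsa, which rose after TAC, also holds 5. None of the capitalised runs shown begins at the annotated start itself, so the shares count runs near the start and not TOP tracts. A run in this window describes the annotated start and does not show where transcription began in these hearts.

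Of the 83 genes, 81 passed the filter on low counts, and 67 of these averaged at least 50 CPM. Rpl10l, the testis paralogue of Rpl10, had 1 count over all libraries, and it and Rpl32l were not tested. Scaled to the length of the annotated exons, the mean level over all libraries ran from 0.401 CPM per kb to 771, with a median of 82.7. Rplp1, a protein of the acidic stalk that recruits elongation factors, was highest at 771 CPM per kb. Rps15, a protein of the small subunit head, stood at 521 and Rps29, a small zinc-binding protein, at 461 CPM per kb. At the low end were Rpl21 at 0.401, Rpl39l at 0.406 and Rps10 at 0.727 CPM per kb.

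Low levels of some genes have to be read with their copies. Ribosomal protein genes have many processed pseudogenes, and 298 rows carry a pseudogene name of one of them, 167 with at least 1 count. These rows held 2.26 to 2.58 counts per 100 counts of the ribosomal protein genes in the 14 libraries. Rps10 had 551 counts in all and its pseudogene rows 11324, and Rpl21 had 449 against 982. For Rps2 the pseudogene rows held 47.7% of the joint counts, for Rpl14 29.9% and for Rpl3 24.9%. How reads matching several copies were counted is not given in the sources used here, so the values of at least these 5 genes are uncertain. Any copies without such a pseudogene name were not counted in these rows. Other genes with few counts, such as Rpl24 (264), Rpl13a (2667) and Rpl29 (6431), may therefore be uncertain too. GENCODE M21 types 80 of the 83 genes as protein coding and Rps4l, Rpl6l and Rpl32l as processed pseudogenes. Some ribosomal proteins have names outside the rule, such as Rps3a1, Fau, Rack1, Rpl36al, Rpl22l1 and Rpl7l1, and are kept apart.

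Together the 83 genes took a larger share of the counts after TAC. In KO TAC the share was 1.58%, 1.69%, 1.52% and 1.64%, and in WT TAC the lowest, median and highest libraries stood at 1.48%, 1.58% and 1.98%. The KO sham libraries stood at 1.23% and 1.43% and the WT sham libraries at 1.31% and 1.29%. All 10 TAC libraries lay above all 4 sham libraries, and no test was run on this share. The mean shares were 1.61% ± 0.0737 in KO TAC (SD, n = 4), 1.65% ± 0.183 in WT TAC (n = 6), 1.33% ± 0.141 in KO sham (n = 2) and 1.3% ± 0.0141 in WT sham (n = 2). Mitochondrially encoded genes moved the other way, at 16.5%, 13.9%, 22.1% and 18.6% of counts in the same order of groups. Without them the ribosomal protein shares were 1.93%, 1.91%, 1.71% and 1.6%, and KO sham replicate 2, at 1.88%, lay within the range of the TAC libraries of both genotypes.

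**Figure D1:**
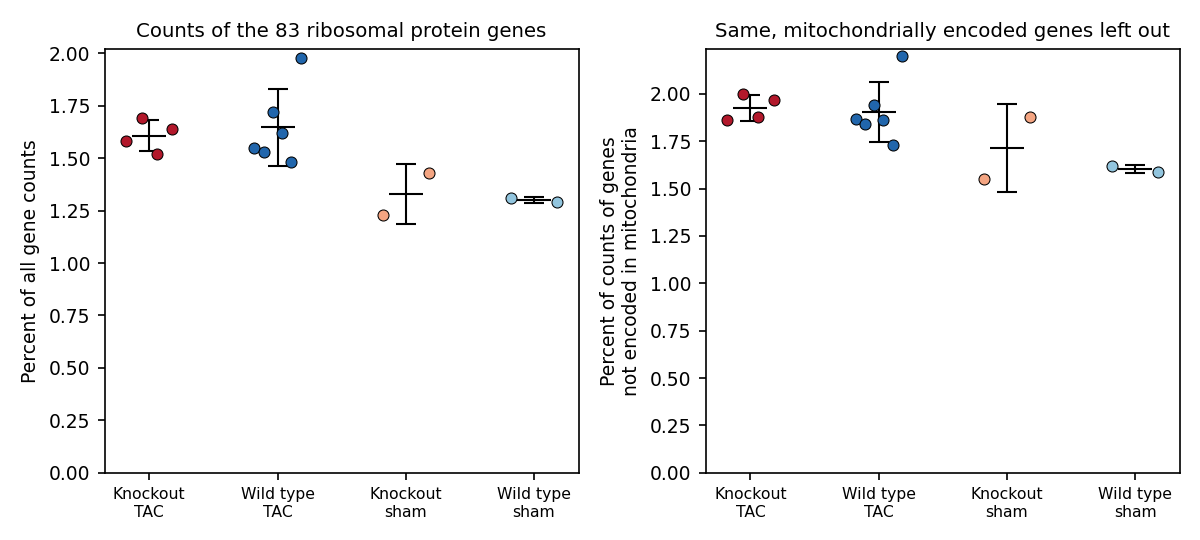
Percent of gene counts taken by the 83 ribosomal protein genes in each library (points), of all genes on the left and of genes not encoded in mitochondria on the right, with the mean and SD of each group. On the left all 10 TAC libraries, at 1.48% or more, lie above all 4 sham libraries, at 1.43% or less, while on the right the groups overlap through KO sham replicate 2.

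Averaged over the genotypes, TAC against sham raised 31 of the 81 genes and lowered 1, Rpl3l. Large subunit genes accounted for 20 of the increases among 49 tested, and small subunit genes for 11 among 32. The increases were small and alike, with a median log2 fold change of 0.24, or 1.18-fold, over the 81 genes, where the median of all genes was 0.0, and 76 of the 81 values were positive. The test was edgeR's quasi-likelihood test on the mean of both TAC effects, adjusted over 15876 genes. The share higher was 38.3%, against 12.7% of all genes higher (11.6% lower, 24.2% in either direction). The groups themselves mostly overlapped, since all TAC libraries lay above all sham libraries at 6 of the 81 genes, against 5.18% of all genes. Marker sums of other cells moved with TAC as well, with the 10 macrophage markers at 509 to 685 CPM in KO TAC, 585 to 1130 in WT TAC, 456 to 487 in KO sham and 464 to 488 in WT sham, and the 12 cell cycle genes at 94.7 to 182, 41.2 to 92.2, 21 to 27.2 and 17.2 to 18 CPM. No marker of these lists was at 0, and the part of these cells in the increases was not tested.

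The median log2 fold change of the 81 genes ran from 0.18 to 0.3 with a library left out. The count of calls moved more. It was 3 without KO sham replicate 1, 4 without WT sham replicate 1 and 4 without WT sham replicate 2. It was also lower without KO TAC replicate 1 (19), replicate 2 (12) or replicate 5 (18) and without WT TAC replicate 3 (15) or replicate 4 (18), and 36 without the library labelled WT TAC replicate 1. The median was 0.24 without that library. Of the 32 calls, 2 held whichever of the 14 libraries was left out, those of Rpl3 and Rpl13a.

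Rpl13a, a large subunit protein that can also leave the ribosome and act in a complex silencing inflammatory mRNAs, had 9.07, 9.13, 8.62 and 10.6 CPM in KO TAC. In WT TAC its lowest, median and highest levels were 6.58, 8.08 and 11 CPM. KO sham had 5.81 and 6.22 CPM and WT sham 5.84 and 5.73. Every TAC library was above every sham library, and the averaged log2 fold change was 0.59 (SE 0.13, edgeR adjusted p = 0.0042). Its level was among the lowest of the tested genes.

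Rps26, a small subunit protein that contacts the mRNA upstream of the start codon, had 132, 141, 133 and 122 CPM in KO TAC. WT TAC ran from 116 through a median of 128 to 165 CPM, and the sham libraries had 94.5 and 114 CPM in KO and 98.9 and 99.0 in WT. Here too no sham library reached a TAC library, and the averaged difference was 0.38 (SE 0.09, edgeR adjusted p = 0.0077), a call lost only without KO sham replicate 1 among the 14 libraries left out in turn (0.31, adjusted p = 0.07). Rpl29, a small basic protein of the large subunit, was likewise higher in all TAC libraries, at 18.5 to 22.5 CPM in KO TAC and 18.7 to 23.0 in WT TAC, against 14.4 and 17.1 CPM in KO sham and 16.5 and 17.7 in WT sham (log2 fold change 0.32, SE 0.08, edgeR adjusted p = 0.01).

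Further genes that rose had averaged log2 fold changes between 0.24 and 0.41, with overlapping groups. They included Rpl39, which lines the exit tunnel (0.41), Rpl12, at the base of the stalk (0.33), Rpl36a (0.32), Rplp1, an acidic stalk protein (0.37), Rpl28 (0.24), Rpsa, a small subunit protein also known as a laminin receptor (0.34), Rplp0, the stalk scaffold (0.31), Rps20 (0.31), Rps15 (0.26), and Rps6, the substrate of the S6 kinases (0.24). Their edgeR adjusted p-values ran from 0.018 to 0.048. Rpsa had 729, 685, 637 and 601 CPM in KO TAC and 571 to 841 in WT TAC, against 488 and 587 in KO sham and 515 and 510 in WT sham. For Rpsa the overlap came from KO sham replicate 2, at 587 CPM, above the lowest WT TAC library.

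**Figure D2:**
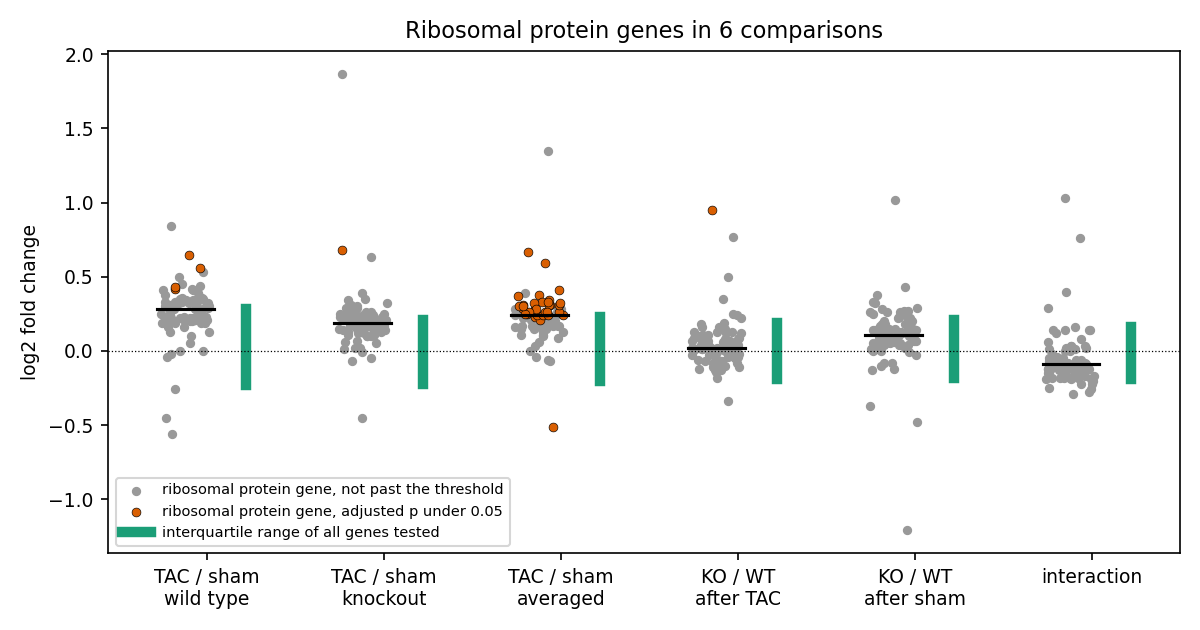
Log2 fold changes of the 81 tested ribosomal protein genes (points, those past an edgeR adjusted p of 0.05 in orange) in 6 comparisons, with their median (black line) beside the interquartile range of all 15876 genes (green bar). The medians are 0.28, 0.19 and 0.24 for the 3 TAC comparisons and 0.02, 0.11 and -0.09 for the other comparisons.

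Within a genotype few single genes passed, although nearly all pointed upwards. In WT, TAC against sham raised 4 of 81 genes and lowered none (4.94%, against 6.36% of all genes higher, 5.8% lower and 12.2% in either direction). These were Rpl3, Rps20, Rps26 and Rpl13a, and the median over the 81 genes was 0.28, with 74 positive. All 6 WT TAC libraries lay above both WT sham libraries at 54 of the 81 genes, against 16.3% of all genes. Rps20, a small subunit head protein, had 160 to 224 CPM in WT TAC against 141 and 131 in WT sham (log2 fold change 0.43, SE 0.13, edgeR adjusted p = 0.04). Rpl13a, at 0.56 (SE 0.18), had an adjusted p that rounds to 0.05 and lost its call for 12 of the 14 libraries left out in turn.

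The WT count was 0 without either WT sham library, 1 without KO TAC replicate 2 or 5 or WT TAC replicate 3 or 4, 2 without KO TAC replicate 4, and 9 without WT TAC replicate 2. Without the library labelled WT TAC replicate 1 it was 8 higher and 1 lower, adding Rplp0 (0.44), Rpl39 (0.52), Rpl36a (0.42) and Rpl12 (0.42) to the genes that rose and Rpl3l to those that fell. The median of the 81 genes was again 0.28 without it.

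In KO, TAC against sham raised 1 of 81 genes, Rpl3 (1.23%, against 2.36% of all genes higher, 1.73% lower and 4.08% in either direction). The median was 0.19, with 77 positive, and all 4 KO TAC libraries lay above both KO sham libraries at 31 of the 81 genes, against 17.0% of all genes. Next by p were Rpl13a (0.63, SE 0.19, edgeR adjusted p = 0.065) and Rpl29 (0.39, SE 0.12, edgeR adjusted p = 0.071), which did not pass. The median depended on which KO sham library was used, at 0.05 without replicate 1 and 0.34 without replicate 2. The count was 0 without KO TAC replicate 1, 2 or 5 or either KO sham library, 2 without WT TAC replicate 2 and 4 without WT TAC replicate 7.

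Rpl3 and its striated muscle paralogue Rpl3l moved in opposite directions. Rpl3 (GRCm38 chr15:80077791-80091868, minus strand) had 170, 183, 144 and 167 CPM in KO TAC and 93.0 and 114 in KO sham. In WT TAC it had 174 CPM at the lowest, 205 at the median and 265 at the highest, against 140 and 127 CPM in WT sham. No sham library reached a TAC library. The log2 fold change after TAC was 0.68 in KO (SE 0.17, edgeR adjusted p = 0.032), 0.65 in WT (SE 0.16, edgeR adjusted p = 0.019) and 0.67 averaged over both (SE 0.12, edgeR adjusted p = 0.0012). The averaged call held in every alternative fit, with values of 0.58 to 0.74. The KO value failed without KO TAC replicate 1, 2 or 5 or KO sham replicate 1 or 2, and the WT value failed without either WT sham library.

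Rpl3l (GRCm38 chr17:24727820-24736143, plus strand) had 242, 219, 249 and 240 CPM in KO TAC and 310 and 338 in KO sham. In WT TAC it ran from 110 through a median of 156 to 230 CPM, and WT sham had 246 and 251 CPM. Within each genotype every TAC library lay below both sham libraries, while KO TAC overlapped WT sham. Averaged over the genotypes Rpl3l fell by 0.51 on the log2 scale (SE 0.15, edgeR adjusted p = 0.022). The call was lost without any 1 of the 4 sham libraries (adjusted p of 0.069 to 0.079). The values in WT (-0.56, SE 0.2, edgeR adjusted p = 0.076) and KO (-0.45, SE 0.21, edgeR adjusted p = 0.25) did not pass, and without the library labelled WT TAC replicate 1 the WT value was -0.67 and passed (edgeR adjusted p = 0.017). It was also -0.67 and passed without WT TAC replicate 2 (edgeR adjusted p = 0.026), and it passed by DESeq2. With the compared groups only, the KO value was -0.42 and passed (edgeR adjusted p = 0.021).

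The balance of the pair was also read within each library, where library scaling has no part. Rpl3l had 1.42, 1.19, 1.73 and 1.44 counts per Rpl3 count in KO TAC and 3.33 and 2.97 in KO sham. In WT TAC libraries the ratio ran from 0.415 to 1.31, against 1.76 and 1.97 in WT sham. In both genotypes the TAC ratios lay below the sham ratios without overlap, and in 4 of the 6 WT TAC libraries Rpl3 had more counts than Rpl3l. The counts were not scaled to the annotated exon length, 3175 bases for Rpl3 and 1643 for Rpl3l. More counts therefore do not mean more transcripts. Pseudogene rows of Rpl3 held 24.9% of its joint counts with them, while Rpl3l had no such row. How shared reads were counted is not known, so the Rpl3 side of the ratio is uncertain. The log2 ratio differed between TAC and sham by -1.13 in KO (exact two-sided permutation p = 0.067, and 15 groupings allow none smaller) and by -1.24 in WT (exact permutation p = 0.071, smallest possible 0.036). Adjusted over 4 ratio comparisons both were 0.095. Without the library labelled WT TAC replicate 1 the WT difference was -1.39 (exact permutation p = 0.048, adjusted 0.089).

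Between the genotypes the pair leaned the other way. After TAC the log2 ratio was 0.52 ± 0.22 in KO (SD, n = 4) and -0.35 ± 0.63 in WT (n = 6), a difference of 0.87 with overlapping groups (exact two-sided permutation p = 0.033, adjusted 0.095). After sham it was 1.65 ± 0.12 in KO and 0.9 ± 0.11 in WT (SD, n = 2 each), which cannot reach an exact permutation p under 0.33. Among the WT TAC libraries the one labelled replicate 1 had the highest log2 ratio, 0.39, where KO TAC ran from 0.26 to 0.79. The ratio difference between genotypes after TAC is not given without that library. Rpl3l itself stood 0.50 higher in KO than in WT after TAC (SE 0.16, edgeR adjusted p = 0.061). That passed without the library labelled WT TAC replicate 1 (0.61, edgeR adjusted p = 0.0089), without WT TAC replicate 2 (0.59, edgeR adjusted p = 0.03) and with DESeq2 (0.51, adjusted p = 0.021). Rpl3 stood at -0.34 (SE 0.12, edgeR adjusted p = 0.082), and passed at -0.39 without the library labelled WT TAC replicate 1 (edgeR adjusted p = 0.035).

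**Figure D3:**
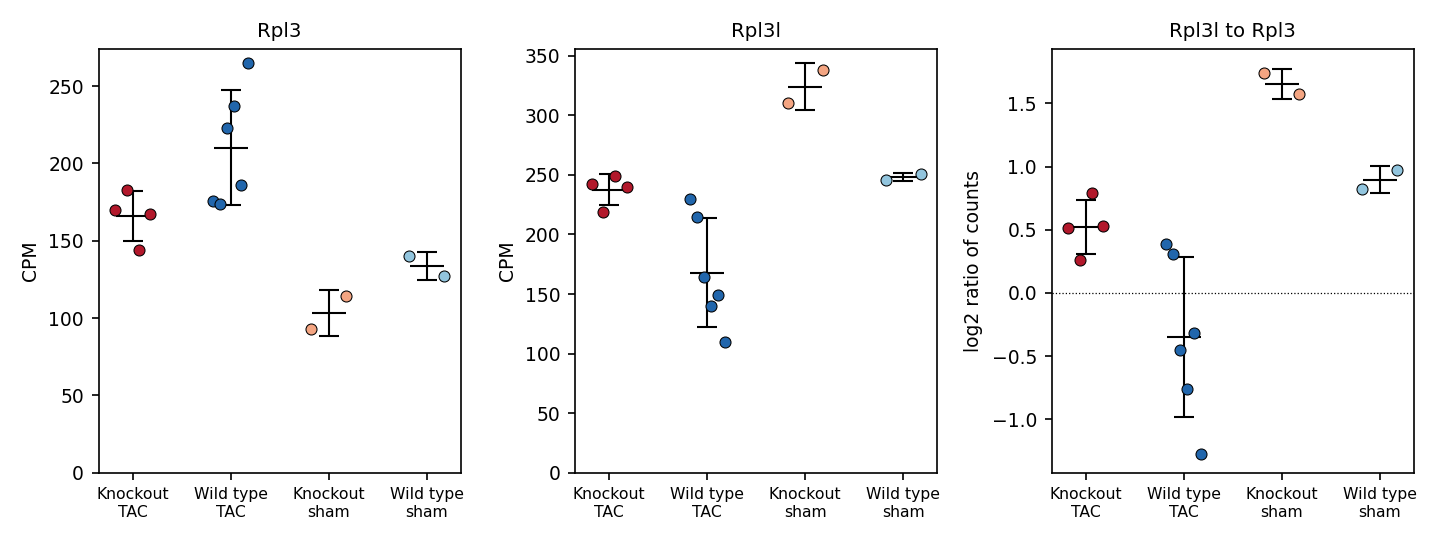
Levels of Rpl3 and Rpl3l in CPM and the log2 ratio of their counts, in each library (points) with the mean and SD of each group. Rpl3 is at 144 CPM or more in the 10 TAC libraries and at 140 or less in the 4 sham libraries, and the ratio is below the sham range of the same genotype in every TAC library.

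Among the 6 WT TAC libraries the paralogues were opposed, and the cell type marker sums moved with them. Rpl3 and Rpl3l correlated with Pearson r = -0.88 (exact permutation p = 0.019, adjusted over 6 relations 0.029) and Spearman rho = -0.89 (exact permutation p = 0.033, adjusted 0.067), and r was -0.69 without the 2 libraries farthest from the median of Rpl3. Rpl3l correlated with the cardiomyocyte marker sum at r = 0.95 (exact permutation p = 0.0083, adjusted 0.017) and rho = 0.94 (exact permutation p = 0.017, adjusted 0.067), with r = 0.88 without the 2 farthest libraries. Rpl3 correlated with the fibroblast marker sum at r = 0.94 (exact permutation p = 0.0083, adjusted 0.017) and rho = 0.89 (exact permutation p = 0.033, adjusted 0.067), with r = 0.92 without 2. The WT TAC group had the widest range of both sums, and their part in the fall of Rpl3l and the rise of Rpl3 was not tested.

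With Nppb, a natriuretic peptide gene that marks load, Rpl3 correlated at r = 0.77 (exact permutation p = 0.05, adjusted 0.06) and rho = 0.83 (exact permutation p = 0.058, adjusted 0.07), but r was 0.23 without 2 libraries, so the relation rests on those. The 6 WT TAC libraries of these correlations include the library labelled WT TAC replicate 1, which had the highest Rpl3l of the group, at 230 CPM. The correlations were not computed with that library alone left out, so how far they rest on it was not tested. The other relations computed were of Rpl3l with Nppb and with the fibroblast sum. With Nppb r was -0.68 (exact permutation p = 0.12, adjusted 0.12) and rho -0.6 (exact permutation p = 0.24). Its sign was not stable, as r was 0.34 without 2 libraries. With the fibroblast sum r was -0.95 (exact permutation p = 0.0083, adjusted 0.017) and rho -0.83 (exact permutation p = 0.058), with r = -0.81 without 2.

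The promoters of a housekeeping ribosomal protein gene and of Rpl3l are shown to set their letters side by side, since Rpsa rose and Rpl3l fell. They are the 250 bases before the RefSeq start in GRCm38.p6, searched on both strands for 6 motifs, those of ETS factors, the GC box, the TATA box, the E box, TEAD factors and GATA factors, which are spelled out beside their counts. Matches are in capitals.
Rpsa, chr9:120127516-120127765, plus strand: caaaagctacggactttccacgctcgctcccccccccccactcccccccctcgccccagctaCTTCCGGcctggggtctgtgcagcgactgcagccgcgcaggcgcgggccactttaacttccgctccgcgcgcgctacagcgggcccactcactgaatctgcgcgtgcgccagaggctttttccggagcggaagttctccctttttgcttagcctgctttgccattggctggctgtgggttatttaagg
Rpl3l, chr17:24727576-24727825, plus strand: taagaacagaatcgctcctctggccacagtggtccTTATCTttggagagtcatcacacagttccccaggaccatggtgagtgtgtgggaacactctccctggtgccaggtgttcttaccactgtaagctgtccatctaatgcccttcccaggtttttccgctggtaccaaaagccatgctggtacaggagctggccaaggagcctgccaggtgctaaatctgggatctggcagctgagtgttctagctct
Rpsa holds 1 ETS match and Rpl3l 1 GATA match. The ETS letters CCGGAAG occur in 17 of the 61 ribosomal protein promoters (27.9%), against 7.14% of the 27025 promoters of all genes. The GC box letters GGGCGG were found in 47.5% of the ribosomal protein promoters against 32.7% of all promoters. The TATA box letters TATAAA were less frequent in the ribosomal protein set, at 6.56% against 12.9%. For the E box, spelled CACGTG, the shares were 8.2% and 5.93%. For the TEAD letters CATTCC they were 8.2% and 12.6%, and the GATA letters AGATAA had 6.56% and 10.2%. Where a gene had several entries, the ribosomal protein set used the entry with the longest run of C and T at the start. The set of all genes used the entry with the lowest coordinate, so the shares are not strictly like for like. A match is a description of letters and shows no binding.

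In knockout against wild type after TAC, 1 of 81 genes, Rps4l, was higher and none lower (1.23%, against 3.71% of all genes higher, 5.63% lower and 9.34% in either direction), and the median was 0.02. Rps4l (GRCm38 chr6:148354656-148355598, plus strand) is a copy of Rps4x, which codes for a small subunit protein. It had 22.9, 31.1, 38.1 and 37.8 CPM in KO TAC and 12.5, 15 and 24.7 CPM at the lowest, median and highest in WT TAC. The groups overlapped in 1 library of each, and the log2 fold change was 0.95 (SE 0.2, edgeR adjusted p = 0.015).

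After sham Rps4l had 32.5 and 35.7 CPM in KO, both above the 13.1 and 20.7 CPM in WT, a log2 fold change of 1.02 (SE 0.32) that did not pass (edgeR adjusted p = 0.28). With the compared groups only it was 1.03 and passed (edgeR adjusted p = 0.0029). TAC against sham gave -0.07 in KO (SE 0.27, edgeR adjusted p = 0.91) and 0.00 in WT (SE 0.26, edgeR adjusted p = 0.99). The library labelled WT TAC replicate 1 had 14.4 CPM, within the range of the other WT libraries, and without it the difference after TAC was 0.91 (edgeR adjusted p = 0.014). The call was lost without KO TAC replicate 4 (adjusted p = 0.056) or replicate 5 (adjusted p = 0.06). As Rps4l is typed as a transcribed processed pseudogene and resembles Rps4x, its reads are uncertain.

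Rps4x did not pass in any comparison, with 355 to 394 CPM in KO TAC, 345 to 442 in WT TAC, 315 and 366 in KO sham and 334 and 325 in WT sham. Its log2 fold change between KO and WT after TAC was -0.05 (SE 0.08, edgeR adjusted p = 0.75). Rps4l made up 5.72% to 9.7% of the joint counts in KO TAC, 2.76% to 5.96% in WT TAC, 8.89% and 9.35% in KO sham and 3.79% and 5.99% in WT sham.

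**Figure D4:**
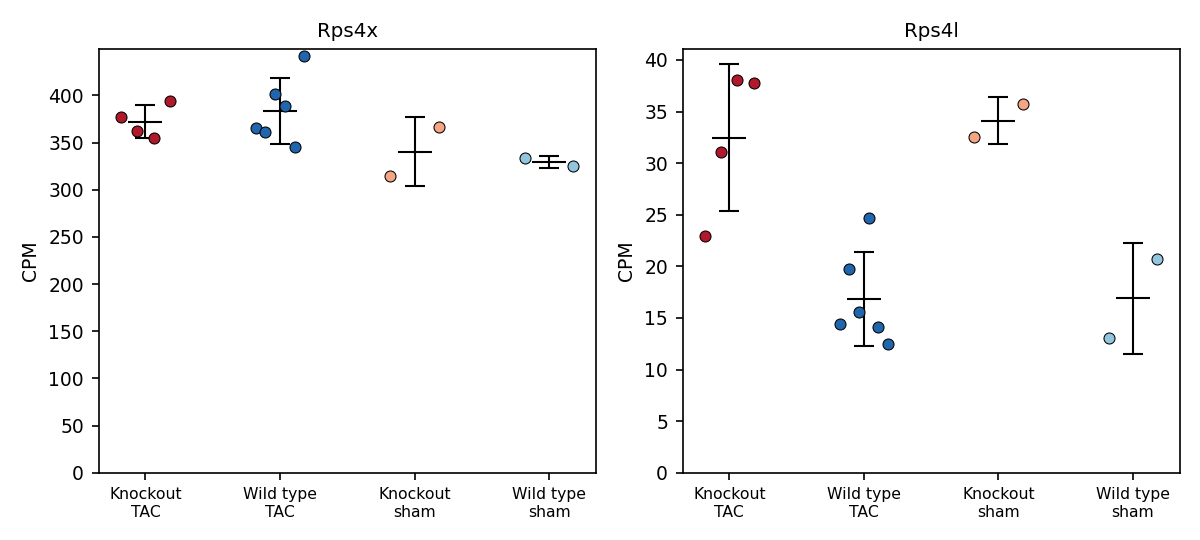
Levels of Rps4x and its copy Rps4l in CPM in each library (points), with the mean and SD of each group. Rps4l averages 32.5 CPM in KO TAC against 16.8 in WT TAC and 34.1 in KO sham against 16.9 in WT sham, while Rps4x stays between 315 and 442 CPM.

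Without the library labelled WT TAC replicate 1 the genotype comparison after TAC called 4 genes, Rps4l, Rpl3l and Rpl28 (0.29) higher and Rpl3 lower. The count was 0 without KO TAC replicate 4 or 5, 2 without KO TAC replicate 1 or WT TAC replicate 2, and 3 without WT TAC replicate 7. Rps27l, a paralogue of Rps27 known as a p53 target, was higher in all 4 KO TAC libraries, at 52.1 to 60.8 CPM, than in all 6 WT TAC libraries, at 42.0 to 51.6 CPM, but did not pass (0.24, SE 0.08, edgeR adjusted p = 0.065). Its partner Rps27 stood at -0.04 (SE 0.11). All KO TAC libraries lay above all WT TAC libraries at 1 of the 81 genes, against 2.44% of all genes.

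Knockout against wild type after sham called none of 81 genes by edgeR, DESeq2 or limma voom over the 14 libraries without a replicate block. By edgeR 0.0378% of all genes were higher, 0.0882% lower and 0.126% called in either direction. A replicate block gave a call of Rps4l (1.05, edgeR adjusted p = 0.02). Of the 81 genes, 5 had an unadjusted p under 0.05 in the main fit, against 1799 of the 15876 genes tested. The median was 0.11, with 71 positive, but it was 0.26 without KO sham replicate 1 and -0.05 without KO sham replicate 2. Next to Rps4l by p were Rpl28, a large subunit protein, at 0.43 (SE 0.14, edgeR adjusted p = 0.29), and Rps27l at 0.33 (SE 0.12, edgeR adjusted p = 0.32). With the compared groups only, edgeR called 3 genes higher, namely Rps4l, Rpl3l at 0.39 (adjusted p = 0.03) and Rpl28 at 0.44 (adjusted p = 0.032). Rpl28 had 210 and 257 CPM in KO sham against 175 and 171 in WT sham.

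The genotype by surgery interaction asks whether TAC acted differently in KO and WT. It called none of the 81 genes by edgeR, DESeq2 or limma voom, nor any of all genes by edgeR (0.0%). Against 647 of the 15876 genes tested, none of the 81 had an unadjusted p under 0.05. The median was -0.09, with 61 negative, and it was -0.24 without KO sham replicate 1 and 0.06 without KO sham replicate 2. The smallest p-values were those of Rpl23 (-0.29, SE 0.18, edgeR adjusted p = 1.0), Rps10 (0.76, SE 0.53) and Rps20 (-0.25, SE 0.18). For Rpl3 it was 0.03 (SE 0.22) and for Rpl3l 0.12 (SE 0.3).

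The ribosomal protein genes moved together between libraries of the same group. WT TAC replicate 7 was the highest of its group at 75 of the 81 genes, a median of 0.38 above the mean of the other 5 on the log2 scale, where the median of all genes was 0.0. WT TAC replicate 6 was the lowest at 61. KO sham replicate 2 stood above replicate 1 at 79 of 81 genes, by a median of 0.29, where all genes had -0.01. The WT sham libraries stood closer, with a median of -0.02 for replicate 2 minus replicate 1 and 30 of 81 above 0. WT TAC replicate 7 also had the smallest mitochondrially encoded share, 10.1%, and KO sham replicate 2 had the largest, 23.7%, and the part of this share in the joint movement was not tested.

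**Figure D5:**
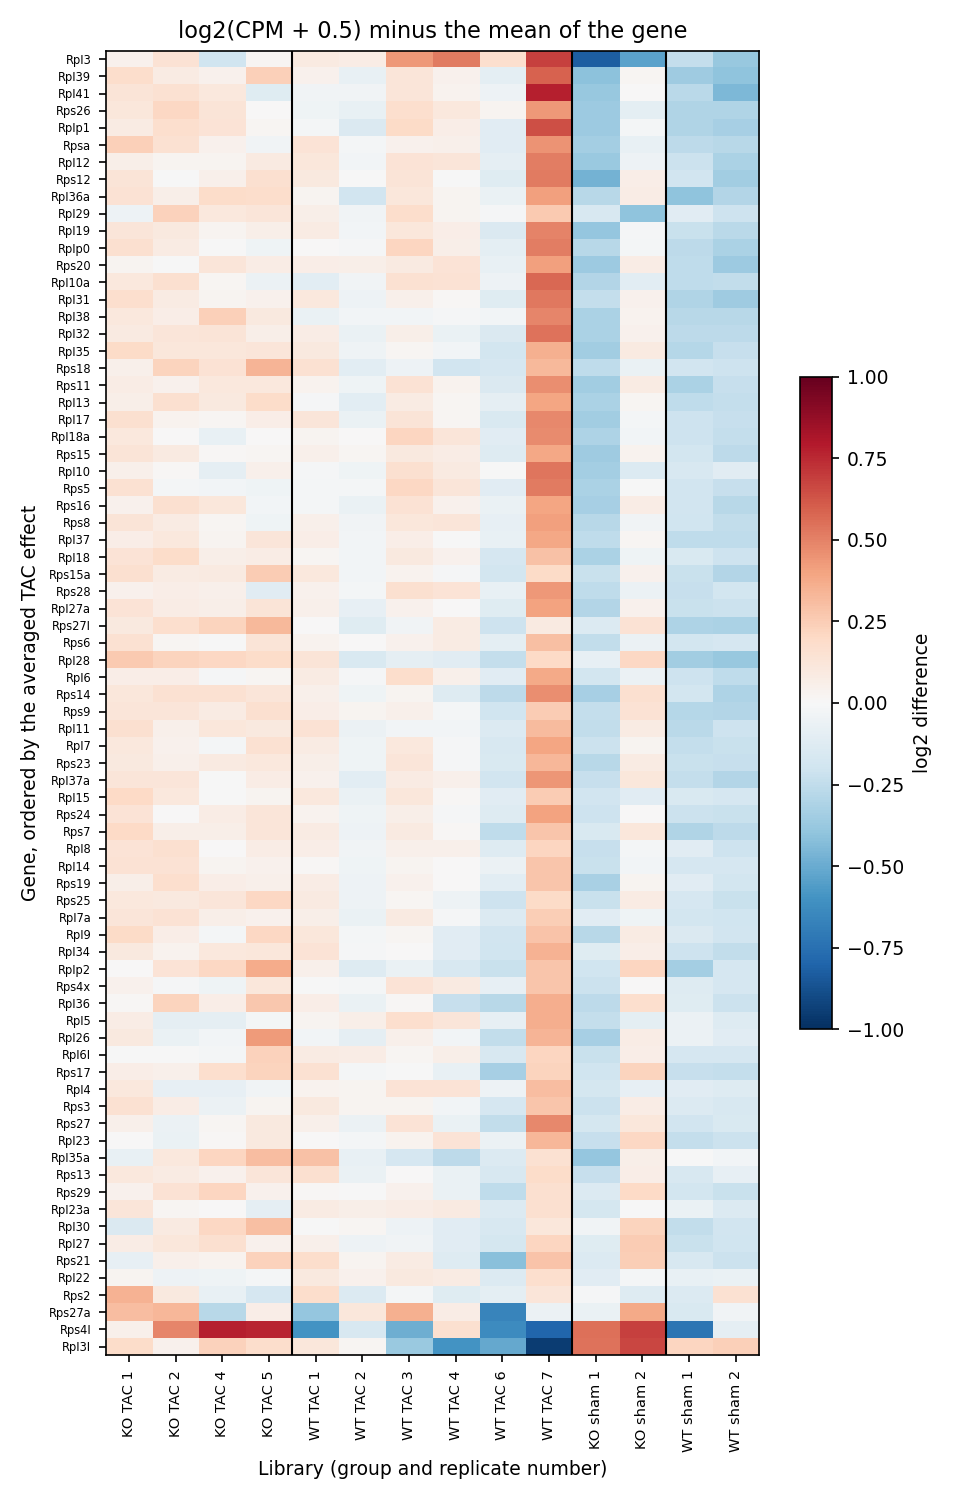
Log2(CPM + 0.5) of the 76 ribosomal protein genes averaging 10 CPM or more, minus the mean of each gene, with genes ordered by the averaged TAC effect and libraries by group. WT TAC replicate 7 is high at nearly every gene and KO sham replicate 1 low, while Rpl3l and Rps4l at the foot run against the rest.

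Of the remaining paralogues, 1 rose and the others were hardly detected or did not pass. Rpl39l, expressed mainly in testis, had 118 counts against 33487 of Rpl39, and at 0.0427 to 0.809 CPM its averaged log2 fold change of 1.35 (SE 0.56, edgeR adjusted p = 0.089) did not pass. Without WT sham replicate 2 it was 2.53 and passed (edgeR adjusted p = 0.031). Rps27l rose with TAC by 0.24 averaged over the genotypes (SE 0.07, edgeR adjusted p = 0.026) and made up 29.9% to 32.6% of the joint counts with Rps27 in KO TAC, 24.0% to 31.4% in WT TAC, 29.8% and 29.9% in KO sham and 26.8% and 27.5% in WT sham. Outside the symbol rule, Rack1, a scaffold on the small subunit, rose in the averaged comparison, at 0.26 (SE 0.09, edgeR adjusted p = 0.047).

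Genes that build ribosomes rose in part. Of 35 nucleolar assembly genes 12 were higher (34.3%, against 12.7% of all genes) and none lower in the averaged comparison, with a median of 0.13. They included Rrp12, a factor of pre-ribosome export, at 0.68 (SE 0.12, edgeR adjusted p = 0.0016), the nucleolar chaperone Npm1 at 0.31 (SE 0.07, edgeR adjusted p = 0.0066) and Pes1 at 0.28 (SE 0.07, edgeR adjusted p = 0.0096). Rrp12 averaged 43.4 ± 8.39 CPM in KO TAC (SD, n = 4) and 44.3 ± 6.98 in WT TAC (n = 6), against 20.9 ± 1.35 in KO sham and 35.8 ± 0.023 in WT sham (n = 2 each). Of 16 tested genes of RNA polymerase I and its factors, Cd3eap (0.36) and Polr1c (0.2) were higher, and Polr1a (-0.4), the largest subunit, and Taf1a (-0.35) lower. Of these 16 genes 12.5% were higher, against 12.7% of all genes, and 2 were lower, against 11.6% of all genes.

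Among 34 initiation factor genes 5 were higher and 2 lower after TAC, averaged over genotypes, and the 14.7% higher lay near the 12.7% of all genes. Eif4a1, the mRNA-unwinding helicase, had the smallest p, at 0.51 (SE 0.1, edgeR adjusted p = 0.0022). Among 11 other genes with TOP mRNAs, mostly elongation factors, 3 were higher, namely Pabpc1, the poly(A)-binding protein, at 0.53 (edgeR adjusted p = 0.0059), Eef1a1, the factor that delivers tRNA, at 0.56 (edgeR adjusted p = 0.0073), and Btf3 at 0.24 (edgeR adjusted p = 0.016). These 3 were 27.3% of their list, against 12.7% of all genes. Among 19 tested genes of mTOR, MYC and TOP regulation, Eif4ebp1 was higher (0.65, SE 0.13, edgeR adjusted p = 0.0029), and Tsc1 (-0.39), Tsc2 (-0.26), Eif4ebp2 (-0.32) and Deptor (-0.35) were lower. That is 5.26% higher, against 12.7% of all genes, and 4 of 19 lower, where 11.6% of all genes were lower.

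A second pair of paralogues, in the elongation factor 1 alpha family, also differed in share between the groups, which was not tested. Eef1a2, the form of adult muscle and neurons, made up 49.5% to 54.8% of the joint counts with Eef1a1 in KO TAC, 36.3% to 51.2% in WT TAC, 56.6% and 64.4% in KO sham and 59.8% and 60.1% in WT sham. Eef1a1 was lower in KO than in WT after TAC, by -0.51 (SE 0.14, edgeR adjusted p = 0.037), and Eef2, the translocase, by -0.51 too (SE 0.11, edgeR adjusted p = 0.015). Both values include the library labelled WT TAC replicate 1 and are not given without it.

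Mitochondrial ribosomal protein genes gave another pattern. In KO against WT after TAC, 30 of 77 tested were higher (39.0%, against 3.71% of all genes) and none lower, with a median of 0.28, where 1 of the 81 cytosolic genes was higher and the median was 0.02. The shift was similar after sham, where the KO against WT median was 0.25, with 70 of the 77 positive. None of them was called there, with 2 libraries per group, against 0.126% of all genes. Their interaction median was 0.05, also without a call. In TAC against sham averaged over the genotypes, 4 of the 77 were higher (5.19%, against 12.7% of all genes) and 1 lower (against 11.6% of all genes). Their median was 0.0, against 0.24 for the cytosolic genes. The difference between these lists was not tested. In the same comparison of KO with WT after TAC, 4 of 10 fibroblast markers were lower (median -0.8) and 4 of 10 macrophage markers were lower (median -0.5), against 5.63% of all genes. Of 12 cardiomyocyte markers 11 had positive values (median 0.21) and 1 was called higher. After sham none of these markers was called between KO and WT, and the medians were -0.23, -0.11 and 0.18 in the same order. The part of these cell markers in the mitochondrial ribosomal protein values was not tested. The values after TAC here include the library labelled WT TAC replicate 1 and are not given without it.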

How the data were processed

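Ventricular RNA libraries of 14 mice were grouped by the genotype and treatment labels. The authors deposited raw read counts per gene for 54532 rows, as whole numbers without normalization. Per the submitters' processing notes, FastQC, HISAT2 2.1.0, featureCounts and edgeR were used with GRCm38. Annotation, strand setting and handling of reads with several matches: not given in the sources used here.

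From these counts, filterByExpr in edgeR 4.0.16 (R 4.3.3) kept 15876 genes. TMM factors and glmQLFit (robust) were fitted to 4 group means over all 14 libraries, and quasi-likelihood F tests were run for 6 comparisons, with Benjamini-Hochberg adjustment over all genes and a threshold of 0.05. SE is the absolute log2 fold change over the root of F. Levels are TMM-scaled CPM. The Rpl3l to Rpl3 ratio, with 0.5 counts added, was tested by exact permutation. Depth was 17072262 to 33123052 counts per library, which limits precision mainly for the genes with few counts, and no pair within a group agreed within sampling noise (chi-square per degree of freedom 4.55 to 176). Reads carry no molecular identifiers.

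The members and lists were chosen with earlier results of these data known. Named genes are Ccl24, members that are paralogues, and per comparison up to 8 members in each direction with the smallest p past the threshold (the 3 with the smallest p where fewer than 3 pass). They also include the 3 highest and 3 lowest levels, Rps6, Rplp0, Rpsa and up to 3 genes per other list. Genes named beyond this, such as those listed in full where few passed, were chosen after their values were seen. Alternatives were RLE scaling, no filter, DESeq2 1.42.0, limma 3.58.1 voom, a replicate block, the compared groups alone, each library left out, 5 counts added in the ratio and a total without mitochondrial genes. The steps were tested on simulated counts with 200 genes changed. Changes of 1.5-fold were recovered at 53.5% for TAC averaged over genotypes, 34.3% for TAC in WT and 20.6% in KO. For KO against WT they were recovered at 56.6% after TAC and 12.0% after sham, and at 3.0% for the interaction. False calls made up 2.5% to 7.94% of the calls. Changes under 1.5-fold were not simulated. Coordinates and exon lengths are from GENCODE M21 and start sequences from RefSeq, both on GRCm38. A result for 1 gene outside the symbol rule is not reported here.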

Additional observations from a re-analysis of the deposited data

Results flagged for a closer look

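In the WT TAC group 1 library stood far from the other 5 at 4 of the 27 genes examined, and it was replicate 7 each time. Its level was 402 CPM for Rpl10 (others 270 to 310), 244 CPM for Rpl12 (others 161 to 188), 148 CPM for Rpl39 (others 91.6 to 107) and 591 CPM for Rplp1 (others 342 to 433). The gap to the nearest library exceeded Dixon's 95% limit in 4 of 54 sets of values, where chance gives about 1 in 20, and these genes move together. The averaged TAC count was 42 without this library, against 32 with it.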

How the results depend on the processing

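The cause of each change below was not tested. For TAC against sham in WT, the 4 calls became 15 with DESeq2, 0 with the compared groups only and 0 to 9 with a library left out. In KO the 1 call became 3 with DESeq2, 3 with the compared groups only and 0 to 4 with a library left out, and the median ran from 0.05 to 0.34. For KO against WT after TAC, the 1 call became 4 with DESeq2 and 0 to 4 with a library left out. After sham, 0 calls became 3 with the compared groups only, and the median ran from -0.05 to 0.26. The interaction median ran from -0.24 to 0.06. The averaged TAC count of 32 was 46 with DESeq2, 37 with limma voom, 23 with no filter and 3 to 42 with a library left out. Shares of counts were 1.93%, 1.91%, 1.71% and 1.6% (KO TAC, WT TAC, KO sham, WT sham) over genes not encoded in mitochondria. Same-numbered libraries did not deviate together (r from -0.24 to 0.11 over 13 pairs), so the numbers gave no sign of pairing. So few libraries cannot exclude a shared batch. With a replicate block the counts were 0 in WT, 0 in KO, 1 after sham (Rps4l, 1.05, edgeR adjusted p = 0.02) and 2 in the averaged comparison. Of 704 values of named genes under alternatives, 611 kept their direction and their side of the threshold, 73 lost a call, 20 gained one and none reversed a call. A value called in neither fit also counts as keeping its side, so the 611 do not measure how well calls held.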
